A study of Mus musculus with 8 samples.

Results

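The 10 genes described here are the immediate early transcription factor genes Fos, Fosb, Jun, Junb, Jund, Egr1, Atf3 and Nr4a1 and the feedback genes Dusp1 and Zfp36, taken by symbol from a count table of 24391 genes. All 10 were in the table and all 10 passed the filter on low counts, with between 73 and 3527 reads per library. They were measured by RNA sequencing of flash-frozen brachiocephalic artery lesions from C57BL/6 mice of a smooth muscle lineage tracing line, described as wild type, after 18 weeks on a Western diet. The groups are 4 animals given antibody to interleukin-1β (IL-1β), labelled IL1_AB, and 4 animals given control immunoglobulin G, labelled IgG_Control. All 8 animals share the strain and the diet. The labels name no allele of the lineage tracing line, no model of hypercholesterolaemia, no age, and no dose or duration of antibody. Each library is 1 animal, so p-values measure the spread between animals.

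Immediate early genes are transcribed within minutes of a growth factor, cytokine or mechanical signal, without new protein synthesis, and their mRNAs are short-lived. Fos proteins pair with Jun proteins to form AP-1, a dimer that binds DNA and drives, among others, matrix protease and cytokine genes. IL-1 receptor signalling reaches AP-1 through MAP kinases, and the pathway is limited by Dusp1, a phosphatase that inactivates these kinases, and by Zfp36 (tristetraprolin), which binds AU-rich elements in cytokine mRNAs and speeds their decay. In arteries these genes are also known to respond to injury and to handling of the tissue.

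Counts assigned to genes ranged from 20137336 to 27100415 in antibody libraries and from 21902802 to 29453014 in IgG libraries. IgG animal 2 stood apart in its group, with 24.4% of alignments assigned against 33.2% to 34.9% in the other IgG libraries. Markers of the labelled tissue were present: 8 smooth muscle markers summed to 1655 to 4342 CPM (read counts scaled to library size) in antibody animals and 2525 to 3308 CPM in IgG animals, and 9 macrophage markers to 4743 to 7108 CPM in antibody animals and 3961 to 10898 CPM in IgG animals. The labels also name epithelial cells, and the 5 epithelial markers were each highest in an IgG animal. In antibody animals Epcam reached 0.364, Krt5 0.195, Krt8 1.19, Cdh1 4.42 and Krt18 7.29 CPM, and in IgG animals Epcam reached 0.889, Krt5 7.15, Krt8 8.55, Cdh1 6.95 and Krt18 12.2 CPM. Krt5 was at 0 in at least 1 library of each group. Fat was also in the samples, with 5 brown adipocyte markers summing to 1243 to 4445 CPM in antibody animals, highest in antibody animal 3, and 1389 to 1898 CPM in IgG animals. In bulk tissue, fewer cells of a type and less RNA per cell cannot be told apart.

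Sequences upstream of the start were available from RefSeq (GRCm38.p6) for 9 members, all but Egr1. Of these, 3 are shown for widely known recognition motifs of signal-dependent transcription. The core TGACG and the whole cAMP response element TGACGTCA are bound by CREB and ATF proteins. The CArG box is bound by serum response factor. Each sequence runs 5′ to 3′ over the 250 bases before the annotated start, with the named motif in capitals. Fos (chr12:85473640-85473889, plus strand) has TGACG at 129 and 66 bases before the start, Dusp1 (chr17:26508473-26508722, minus strand) has TGACGTCA at 143 bases, and Zfp36 (chr7:28379229-28379478, minus strand) has a CArG box at 58 bases, counted to the motif's first base.
Fos: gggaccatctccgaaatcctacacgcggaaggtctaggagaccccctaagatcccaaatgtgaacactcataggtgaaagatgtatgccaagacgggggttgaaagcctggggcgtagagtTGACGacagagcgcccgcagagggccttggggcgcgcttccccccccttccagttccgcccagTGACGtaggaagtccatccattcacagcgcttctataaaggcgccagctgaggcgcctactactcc
Dusp1: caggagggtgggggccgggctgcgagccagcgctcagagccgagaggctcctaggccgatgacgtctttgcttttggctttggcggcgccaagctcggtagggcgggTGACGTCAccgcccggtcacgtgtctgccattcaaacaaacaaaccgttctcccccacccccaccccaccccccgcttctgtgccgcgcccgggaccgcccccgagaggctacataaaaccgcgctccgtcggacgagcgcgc
Zfp36: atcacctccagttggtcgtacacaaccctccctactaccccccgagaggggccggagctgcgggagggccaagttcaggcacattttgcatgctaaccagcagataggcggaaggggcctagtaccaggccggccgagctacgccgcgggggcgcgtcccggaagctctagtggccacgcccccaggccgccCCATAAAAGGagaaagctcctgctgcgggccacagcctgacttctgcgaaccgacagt
Both strands were searched. TGACG, which is also part of TGACGTCA, was in 6 of 9 members (Atf3, Dusp1, Fos, Fosb, Junb and Nr4a1) and in 17.8% of 32851 promoter windows of the same length. TGACGTCA was in Dusp1 and in 1.55% of windows, and the CArG box in Zfp36 and in 1.47%. The EGR motif GCGNGGGCG was in Fosb, Nr4a1 and Zfp36 and in 4.70% of windows, and the AP-1 motif TGANTCA in 0 of the 9 and in 6.75% of windows. A match is a description of these letters and not a site. Motifs of Egr1, and motifs farther than 250 bases before the start of any member, were outside this search.

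The comparison of antibody with IgG asks whether antibody to IL-1β is accompanied by a different level of the AP-1 and feedback genes in the lesion. None of the 10 members passed. The 10 point estimates were below 0, from -0.36 for Nr4a1 to -0.03 for Atf3 on the log2 scale, with a median of -0.17 against -0.01 over all 15980 genes tested, of which 52.3% were below 0. In the edgeR quasi-likelihood fit, with Benjamini-Hochberg adjustment over all genes, 0 of 10 members and 0% of all genes passed 0.05, and each member had an adjusted p of 0.9997. At an unadjusted p under 0.05 there was 1 member, Zfp36, against 3.19% of all genes, or 2.06% counting only those lower with the antibody. DESeq2 and limma-voom called 0 members. In the edgeR fit the 95% intervals of all 10 members lay within a 2-fold change in either direction. The same held for 81.0% of all genes. The lowest bound among the members was -0.98 (Nr4a1) and the highest 0.53 (Atf3).

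**Figure D1:**
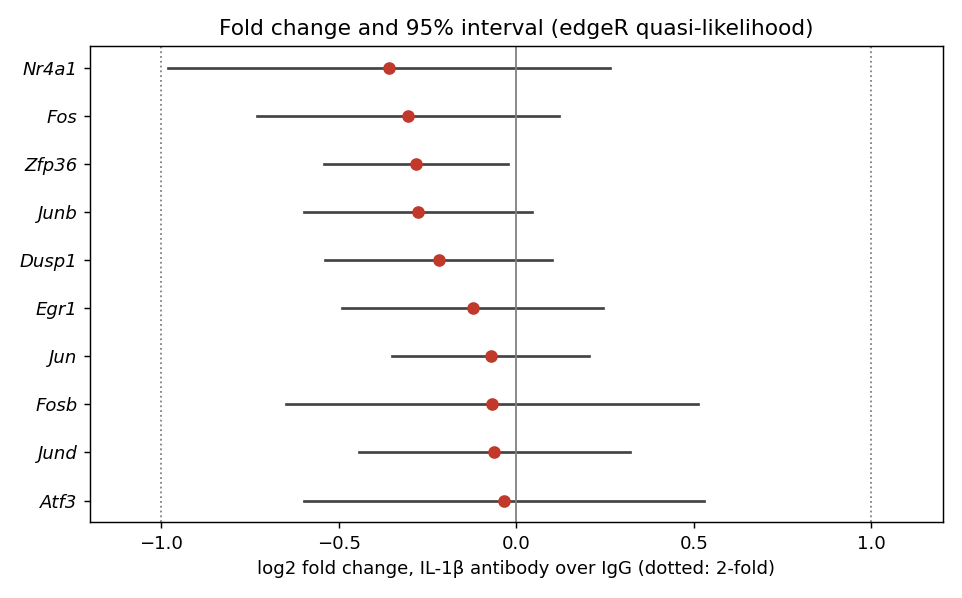
Log2 fold change of each member, IL-1β antibody over IgG, with its 95% interval from the edgeR quasi-likelihood fit (4 animals per group); dotted lines mark a 2-fold change. All 10 estimates lie left of 0 and 9 of 10 intervals cross it, the exception being Zfp36.

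Per length of exon, Atf3 and Junb were the most abundant members and Fosb the least. Averaged over the 8 libraries, Atf3 had 104 TPM (expression scaled by the exon lengths in the table and by library) and Junb 100.02 TPM, followed by Jund with 71.4, Jun with 71.2, Dusp1 with 58.1 and Zfp36 with 38.9 TPM. Nr4a1 (29.2 TPM), Egr1 (29.0 TPM) and Fos (27.1 TPM) formed a lower group, and Fosb had 2.89 TPM. Neighbours in this order overlapped over the libraries except for Fosb, whose highest level, 4.40 TPM, lay below the lowest level of every other member, 17.9 TPM for Nr4a1.

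Among the Fos subunits, which cannot pair with one another and need a Jun partner, Fos was lower in 3 antibody animals than in any IgG animal. Fos (mm9, chromosome 12, 86814851 to 86818219) had 16.4, 29.8, 17.1 and 21.7 CPM in antibody animals 1 to 4, against 27.1, 23.0, 26.2 and 28.8 CPM in IgG animals 1 to 4. Antibody animal 2 had the highest Fos level of all 8 animals, so the groups overlapped. The share of all genes with 3 of 4 antibody animals below every IgG animal was not counted. The log2 fold change was -0.31 ± 0.19 (SE, 95% interval -0.73 to 0.12), and without antibody animal 2 it was -0.52. Fosb (chromosome 7, 19888045 to 19895394), a Fos relative with a shorter isoform known for its persistence in neurons, had 3.56, 6.48, 4.33 and 3.40 CPM in antibody animals, against 5.95, 4.84, 3.39 and 4.49 CPM in IgG animals. The highest Fosb value was again antibody animal 2, and the groups overlapped. Its log2 fold change of -0.07 ± 0.26 turned positive when antibody animal 1 or 4 or IgG animal 1 was left out. With the lowest counts of the members, 73 in antibody animal 1, Fosb has a counting error of up to 11.7% per library. Fosl2, a later-induced Fos family gene that is no member and was singled out after its values were seen, made up 53.9% to 64.9% of the summed TPM of Fos, Fosb, Fosl1 and Fosl2 in antibody animals and 55.1% to 62.2% in IgG animals.

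The Jun subunits can pair with each other as well as with Fos proteins. Jun (chromosome 4, 94715727 to 94718913), the main activating subunit, had 80.8, 95.2, 88.5 and 108 CPM in antibody animals, against 93.2, 114, 93.0 and 91.7 CPM in IgG animals. Antibody animal 4 and IgG animal 2 were the highest of their groups, and the fold change was -0.07 ± 0.12 on the log2 scale (95% interval -0.35 to 0.20). It was 0.0087 without IgG animal 2.
Junb (chromosome 8, 87500808 to 87502647), a subunit that restrains Jun in several settings, had 71.1, 68.9, 72.1 and 69.9 CPM in antibody animals, against 61.2, 96.0, 94.9 and 89.5 CPM in IgG animals. The antibody animals lay between 68.9 and 72.1 CPM, whereas 3 IgG animals lay above all of them and IgG animal 1 lay below. On the log2 scale the difference was -0.28 ± 0.14 (95% interval -0.60 to 0.04) and stayed negative in all 14 alternatives. Without IgG animal 1 it was -0.41, with an unadjusted p under 0.05, as for 9.5% of all genes in that fit, and an adjusted p of 0.508 with edgeR (0.206 at the lowest of the alternatives, in limma-voom).
Jund (chromosome 8, 73221638 to 73224515), the subunit present in resting cells and least dependent on stimulation, had 82.5, 77.6, 92.4 and 87.0 CPM in antibody animals, against 77.5, 124, 73.5 and 79.4 CPM in IgG animals. All animals but IgG animal 2 lay between 73.5 and 92.4 CPM. Its log2 fold change was -0.06 ± 0.17 with that animal, 0.14 without it and 0.069 in limma-voom. Shares within the Jun family, by TPM, overlapped between groups: Junb made up 37.2% to 41.7% in antibody animals and 37.2% to 48.5% in IgG animals.

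Atf3 (chromosome 1, 192994176 to 193007212) encodes a stress-induced bZIP protein that can pair with Jun and represses inflammatory genes in macrophages. It had 82.2, 80.1, 86.7 and 96.0 CPM in antibody animals, against 46.6, 83.6, 127 and 96.0 CPM in IgG animals. The antibody animals lay within the range of the IgG animals, which spanned the whole range of the data, with a coefficient of variation of 8.18% in antibody and 37.7% in IgG animals. The log2 fold change was -0.03 ± 0.25, and its sign turned with the replicate number as a block, or without IgG animal 3 or 4. By TPM it averaged 105 ± 8.08 in antibody animals and 103 ± 33.1 in IgG animals (SD, n = 4 each), so the sign also differed between scales.

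Egr1 (chromosome 18, 35020861 to 35024610), a zinc finger factor induced through serum response factor, and Nr4a1 (chromosome 15, 101097277 to 101105225), an orphan nuclear receptor known to limit macrophage inflammation in atherosclerosis, also had overlapping groups. Egr1 had 34.5, 48.4, 29.4 and 30.6 CPM in antibody animals, against 36.4, 37.8, 37.7 and 43.8 CPM in IgG animals. As with Fos, 3 antibody animals lay below every IgG animal and antibody animal 2 lay above all, a pattern whose share over all genes was not counted. Egr1 had a log2 fold change of -0.12 ± 0.16, and without antibody animal 2 it was -0.31. Nr4a1 had 21.5, 29.8, 33.1 and 22.4 CPM in antibody animals, against 25.4, 40.6, 20.6 and 50.5 CPM in IgG animals. IgG animals 2 and 4 were the highest and IgG animal 3 the lowest of all. Its log2 fold change was -0.36 ± 0.28 (95% interval -0.98 to 0.26), and it was -0.11 without IgG animal 4 and -0.79 in limma-voom.

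Of the feedback genes, Zfp36 (chromosome 7, 29161803 to 29164247) had the smallest p of the members. It had 25.2, 24.04, 24.1 and 31.2 CPM in antibody animals, against 28.9, 33.2, 32.1 and 32.9 CPM in IgG animals. Antibody animals 1 to 3 lay below every IgG animal and antibody animal 4 lay inside their range, so the groups overlapped. While 1.25% of all genes had every antibody animal below every IgG animal, the share with 3 of 4 below was not counted. The log2 fold change was -0.28 ± 0.12 (95% interval -0.54 to -0.02), or a difference of -17.7%, with an unadjusted p of 0.0363 and an adjusted p of 0.9997 (0.198 at the lowest of the alternatives). An exact two-sided permutation test on its log2 CPM, with 4 animals per group, gave p = 0.0571, where 0.0286 is the smallest possible. Zfp36 was negative in all 14 alternatives, from -0.38 to -0.25. Dusp1 (chromosome 17, 26642536 to 26645417) had 34.5, 47.8, 44.5 and 48.6 CPM in antibody animals, against 61.1, 49.5, 44.6 and 48.8 CPM in IgG animals. Antibody animal 1 was the lowest, IgG animal 1 the highest, and the other 6 animals lay between 44.5 and 49.5 CPM. The log2 fold change was -0.22 ± 0.14 (95% interval -0.54 to 0.10), and it was -0.12 without antibody animal 1 and likewise without IgG animal 1.

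**Figure D2:**
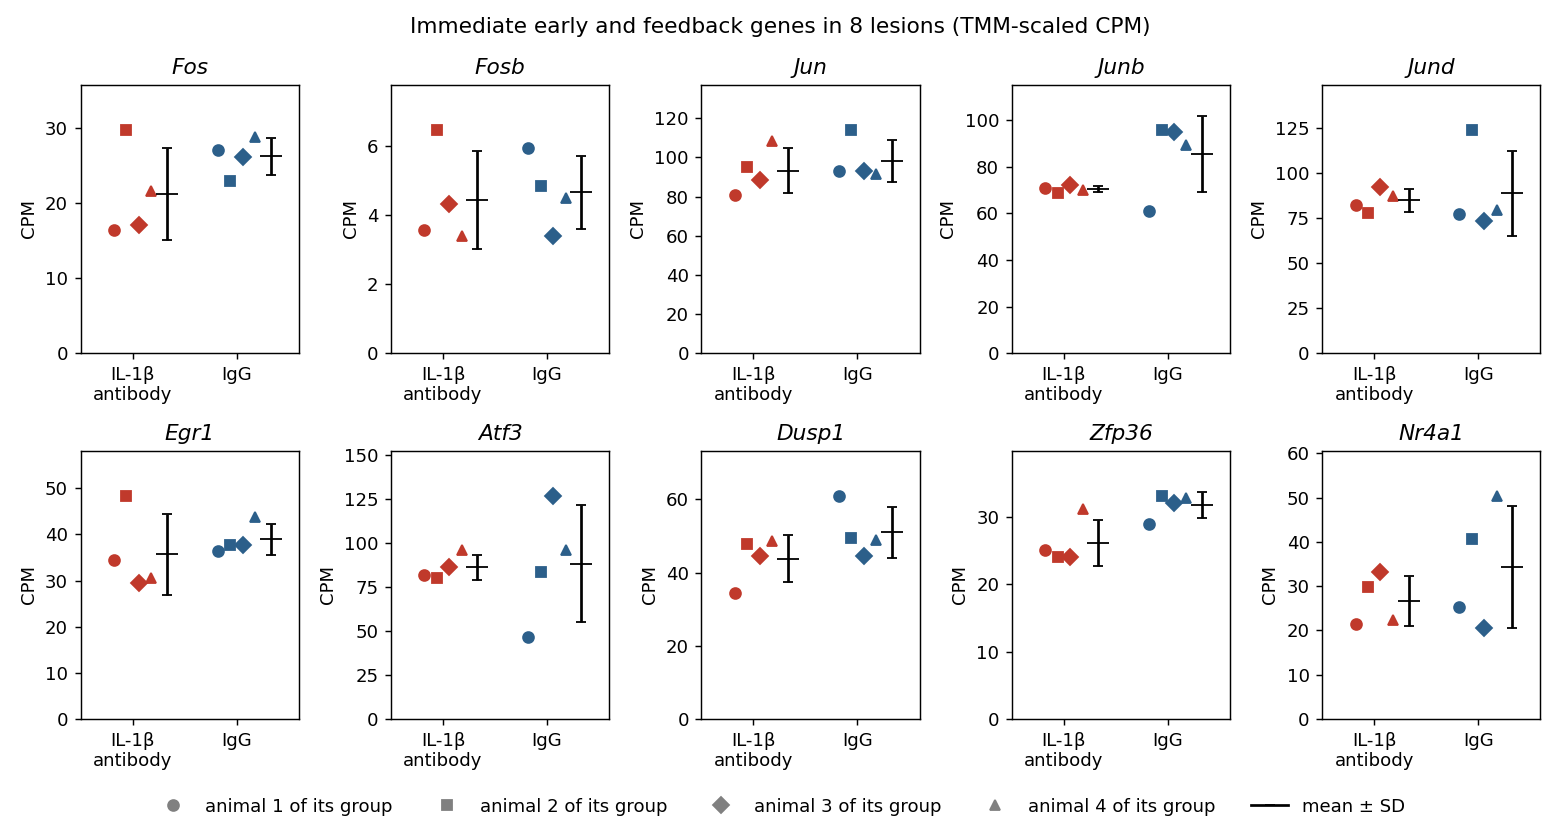
TMM-scaled CPM of the 10 members in each lesion, with antibody animals on the left and IgG animals on the right of each panel; marker shapes give the animal's number in its group and bars the mean ± SD (n = 4). Fos and Egr1 share a high value in antibody animal 2, Junb, Jund and Atf3 spread more widely in IgG animals, and every panel shows overlapping groups.

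Spread between animals differed among the members. The biological coefficient of variation fitted by edgeR was 0.14 for Zfp36 and Jun, at percentiles 15.8 and 16.7 of all genes tested, and 0.28 for Nr4a1 and 0.27 for Fosb, at percentiles 77.2 and 74.8. Fos lay near the middle, at percentile 53.8. The ratio of the highest to the lowest animal ranged from 1.38 for Zfp36 to 2.73 for Atf3. Within groups, Fos, Fosb, Egr1 and Zfp36 varied more among antibody animals (29.1%, 31.9%, 24.5% and 13.01% of the mean) than among IgG animals (9.37%, 22.6%, 8.46% and 6.19%). Junb, Jund, Atf3 and Nr4a1 varied less among antibody animals (1.99%, 7.46%, 8.18% and 21.2%) than among IgG animals (19.2%, 26.8%, 37.7% and 40.2%). These differences in spread were not tested.

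The members did not vary across animals as 1 block. Of 45 pairs, 34 had a positive Pearson r of log2 CPM over the 8 libraries, with a median of 0.24, and 0 pairs passed an adjusted p of 0.05 (exact permutation, smallest adjusted p = 0.674; 3 pairs at an unadjusted p under 0.05). The highest was Fos with Egr1, with r = 0.79 (exact permutation p = 0.0212, adjusted 0.674) and Spearman's rho = 0.83 (exact permutation p = 0.0154, adjusted 0.681). It was 0.77 with each group's mean removed (exact permutation p = 0.108) and 0.86 without antibody animals 1 and 3, the animals farthest from the median of Fos. Junb with Atf3 had r = 0.70 (exact permutation p = 0.0300, adjusted 0.674; rho = 0.67, exact permutation p = 0.0831), and 0.73 without IgG animals 2 and 3. Fosb with Atf3 had r = -0.68 (exact permutation p = 0.0494, adjusted 0.706; rho = -0.74, exact permutation p = 0.0458), and -0.51 without antibody animal 2 and IgG animal 1. No batch is labelled, so no value within batches could be given.

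**Figure D3:**
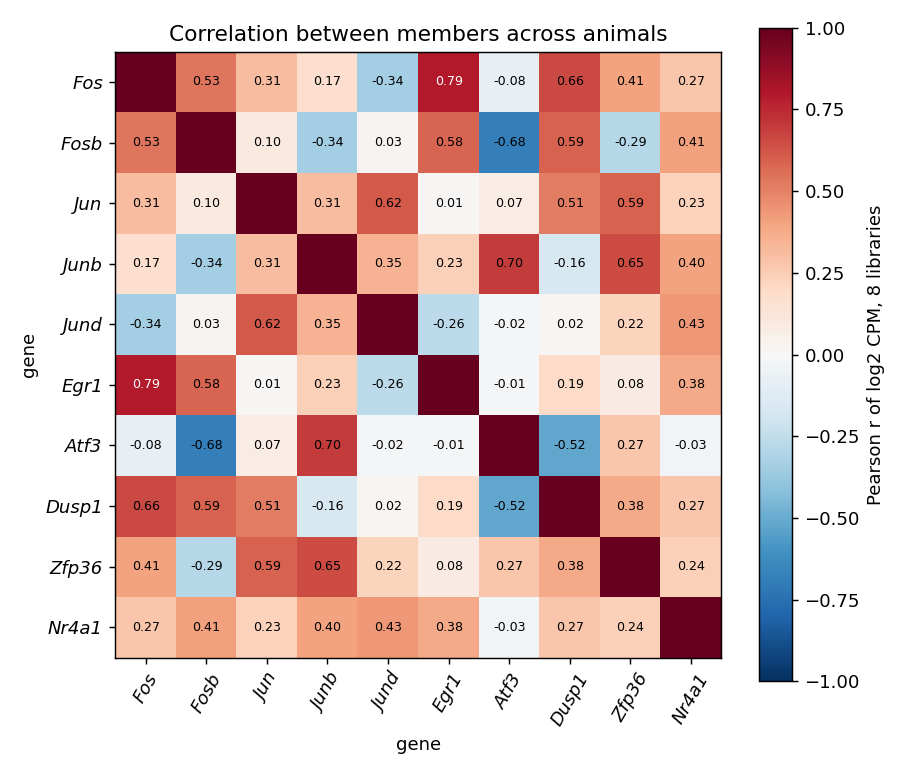
Pearson r of log2 CPM between each pair of members over the 8 libraries, from -1 (blue) to 1 (red). Fos with Egr1 is the highest at 0.79 and Fosb with Atf3 the lowest at -0.68.

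Of 14632 other genes at a mean of at least 1 CPM, the pattern most like that of Fos was shown by Btg2, itself an immediate early gene that slows the cell cycle, with r = 0.97 over 8 libraries. Btg2 had 26.8, 40.3, 29.9 and 34.4 CPM in antibody animals, against 40.2, 33.0, 38.5 and 40.5 CPM in IgG animals. The next were Zc3hav1l and Tmem107 (r = 0.97), Golm1 (r = 0.96) and Pid1 (r = 0.94). For Jund they were Ephb4 (r = 0.99) and Irf3, Rbm15, Zfp579 and Wwox (r = 0.97 each). These values are the highest of many and describe the 8 libraries, and those of Jund share the high value of IgG animal 2.

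Atf3 followed the macrophage markers across animals. The summed level of 9 macrophage markers was 4958, 4743, 5045 and 7108 CPM in antibody animals 1 to 4, against 3961, 5827, 10898 and 8777 CPM in IgG animals 1 to 4, and within each group it placed the animals in the same order as Atf3. Over the 8 libraries r was 0.85 on the log2 scale (exact permutation p = 0.0031) and rho was 0.98 (exact permutation p = 0.000397). This relation was looked for after the values were seen, among 120 relations of 10 members with 12 marker lists, and over these the adjusted p was 0.186 for r and 0.0476 for rho (exact permutation, n = 8). With each group's mean removed r was 0.94 (exact permutation p = 0.0017), and without IgG animals 3 and 4, the farthest in marker level, it was 0.81. All 9 markers had log2 fold changes below 0 (median -0.35, 0 past the threshold, 1 at an unadjusted p under 0.05), against 52.3% of all genes. Junb had r = 0.76 with these markers (exact permutation p = 0.0335, adjusted 0.419; rho = 0.74, exact permutation p = 0.0458), with 0.49 without the same IgG animals, and Fosb had r = -0.62 (exact permutation p = 0.104, adjusted 0.527; rho = -0.69, exact permutation p = 0.0694). For Zfp36 the same relation had r = 0.66 (exact permutation p = 0.0773, adjusted 0.442; rho = 0.67, exact permutation p = 0.0831), with 0.49 without the same IgG animals, and for Fos it had r = 0.25 (exact permutation p = 0.548; rho = -0.05, exact permutation p = 0.935).

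Relations of the members with the other marker lists did not pass 0.05 after adjustment. Of the 120 relations, 14 had an unadjusted p under 0.05 for r, 0 passed 0.05 after adjustment for r, and 1, Atf3 with the macrophage markers, did for rho. Atf3 varied inversely with the thymocyte markers (r = -0.80, exact permutation p = 0.00174, adjusted 0.186; rho = -0.90, exact permutation p = 0.00456, adjusted 0.183), with r = -0.57 without antibody animal 2 and IgG animal 1. Of the 6 thymocyte markers, Rag2 and Ptcra were too low to test. The sum of the 6 lay above that of the T cell markers in every library, with 98.4 against 15.6 CPM in antibody animal 3. Whether this sum reflects thymocytes was not tested. Fos with the T cell markers had r = 0.83 (exact permutation p = 0.0105, adjusted 0.314) and rho = 0.90 (exact permutation p = 0.00456), with r = 0.84 without antibody animal 3 and IgG animal 1. Dusp1 with the B cell markers had r = 0.78 (exact permutation p = 0.00804, adjusted 0.314) and rho = 0.88 (exact permutation p = 0.00724), with r = 0.60 without IgG animals 1 and 4. Further relations had larger p. Among them, Fosb with the thymocyte markers had r = 0.80 (exact permutation p = 0.0233, adjusted 0.406), and 0.36 without antibody animal 2 and IgG animal 1. Egr1 with the brown adipocyte markers had r = -0.74 (exact permutation p = 0.0233, adjusted 0.406), and -0.52 without antibody animals 2 and 3. Fos with the smooth muscle markers had r = 0.71 (exact permutation p = 0.0485, adjusted 0.419), and 0.37 without the same 2 animals. Jund with the cardiac muscle markers had r = 0.74 (exact permutation p = 0.0451, adjusted 0.419), and -0.30 without IgG animals 2 and 3.
As for the macrophage markers, all 7 T cell (median log2 fold change -0.46, 1 at an unadjusted p under 0.05), all 6 B cell (median -0.94, 3 at an unadjusted p under 0.05) and all 7 adventitial fibroblast markers (median -0.28, 0 at an unadjusted p under 0.05) had fold changes below 0, with 0 past the threshold in edgeR. Their summed levels overlapped between groups. T cell markers had 15.6 to 46.2 CPM in antibody animals and 25.04 to 54.9 CPM in IgG animals, B cell markers 4.59 to 7.73 CPM in antibody animals and 5.59 to 19.8 CPM in IgG animals, and fibroblast markers 1550 to 3264 CPM in antibody animals and 1992 to 4411 CPM in IgG animals. Of the thymocyte markers 2 of 4 tested were below 0, with sums of 67.0 to 113 CPM in antibody animals and 59.8 to 128 CPM in IgG animals. Above 0 were all 5 brown adipocyte markers (median 0.36, 1 at an unadjusted p under 0.05), 6 of 8 smooth muscle and 5 of 6 Schwann and nerve markers. Below 0 were 6 of 8 endothelial markers (median -0.06, 0 at an unadjusted p under 0.05), and 3 of 6 each for white adipocyte and skeletal muscle. Cardiac muscle had 5 of 6 markers below 0, with the lowest median of the marker lists (-1.87, 2 at an unadjusted p under 0.05). The cardiac sums were 79.6 to 115 CPM in antibody animals and 63.6 to 250 CPM in IgG animals, highest in IgG animal 2. Over all genes tested in edgeR, 52.3% were below 0 and 3.19% had an unadjusted p under 0.05. The part of cell content in the levels of the members was not tested.

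**Figure D4:**
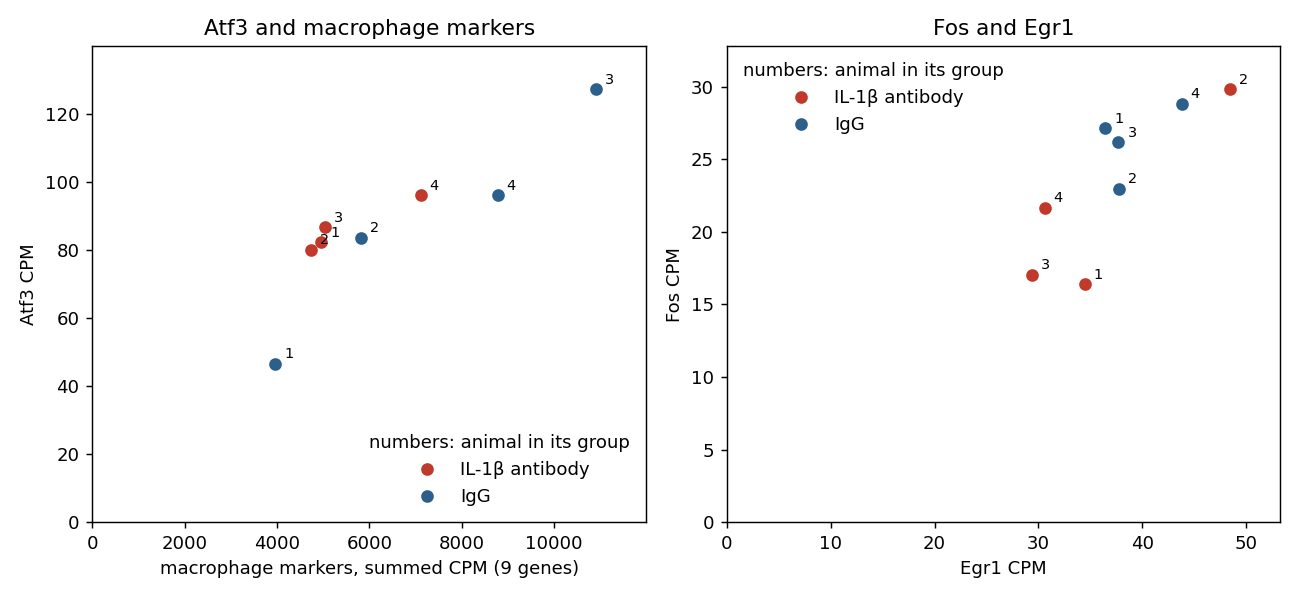
Left, Atf3 CPM against the summed CPM of 9 macrophage markers; right, Fos CPM against Egr1 CPM; each point is 1 animal, red for antibody and blue for IgG, with its number in the group. In the left panel IgG animals 1 and 3 mark the lowest and highest corner, and in the right panel antibody animal 2 has the highest value of both genes.

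Genes around the members in the pathway were described by lists chosen for their roles. In edgeR 0 genes of any list passed an adjusted p of 0.05, and 0 also by DESeq2 and limma-voom. Over all genes in edgeR, 52.3% were below 0 and 3.19% had an unadjusted p under 0.05. Of the other AP-1 subunits, 11 of 14 tested were below 0 (median log2 fold change -0.17, 1 at an unadjusted p under 0.05), and Fosl1 was too low to test. That 1 gene was Maf, a large Maf family factor expressed in tissue macrophages, which had 45.7, 51.7, 45.2 and 47.6 CPM in antibody animals, against 59.4, 57.3, 64.0 and 66.0 CPM in IgG animals. The groups did not overlap, the antibody animals being lower, as for 1.25% of all genes. The log2 fold change was -0.37 ± 0.09, with an adjusted p of 0.9997 (0.123 at the lowest of the alternatives, edgeR and the other tools). Batf3 (-0.50 ± 0.23) and Batf (-0.45 ± 0.25), which pair with Jun in lymphoid and dendritic cells, and Atf2 (0.20 ± 0.11), a kinase-activated Jun partner, had overlapping groups. Batf3 was -0.18 and Atf2 0.08 in limma-voom, and Atf2 was 0.13 without IgG animal 2.

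Of the other immediate early genes, 13 of 19 tested were below 0 (median -0.12, 0 at an unadjusted p under 0.05). Ier2 had a log2 fold change of -0.26 ± 0.13, the flow-responsive factor gene Klf2 -0.35 ± 0.18, Btg2 -0.21 ± 0.14 and Klf4, a factor of smooth muscle modulation, -0.16 ± 0.12 (-0.28 without antibody animal 4). Left-out animals also moved Btg2, to -0.13 without antibody animal 1 and -0.33 without antibody animal 2, and Ier2, to -0.17 without IgG animal 2, and Klf2 had -0.54 in limma-voom. Of the other feedback genes, 13 of 20 were below 0 (median -0.05, 0 at an unadjusted p under 0.05), with Zfp36l1, a relative of Zfp36, at -0.22 ± 0.10, the phosphatase gene Dusp2 at -0.53 ± 0.30, Tnfaip3, a brake on NF-kB, at -0.26 ± 0.16 and Gadd45b at -0.28 ± 0.19. Gadd45b was -0.09 without IgG animal 3, Dusp2 was -0.33 without IgG animal 2 and -0.19 in limma-voom, and Tnfaip3 was -0.39 without IgG animal 1. The kinases and serum response factor partners upstream were divided, 9 of 20 below 0 (median 0.02). Among these, Mapk14, which encodes p38α, had 94.1, 93.8, 92.3 and 90.7 CPM in antibody animals, against 105, 106, 98.9 and 95.7 CPM in IgG animals. These groups did not overlap, the antibody animals being lower, as for 1.25% of all genes. Mapk14 had a log2 fold change of -0.13 ± 0.09 with an unadjusted p of 0.163 (edgeR), and -0.06 in limma-voom. Mapk9 had 0.15 ± 0.13, from 0.09 without IgG animal 2 and 0.10 without antibody animal 2 to 0.27 without IgG animal 1, and the actin-sensing coactivator genes Mkl1 and Mkl2 had -0.17 ± 0.15 and -0.09 ± 0.10. Mkl1 was -0.015 without IgG animal 2 and -0.26 without IgG animal 1, and Mkl2 was -0.15 without IgG animal 1 and -0.14 without antibody animal 1.

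Downstream, 12 of 15 AP-1 target genes were below 0 (median -0.15), against 52.3% of all genes. Of the 15, 2 had an unadjusted p under 0.05, against 3.19% of all genes. These 2 were the collagenase gene Mmp13 (-1.21 ± 0.46), with 24.1, 21.0, 26.6 and 49.6 CPM in antibody animals, against 62.1, 19.9, 98.8 and 98.7 CPM in IgG animals, and the haem oxygenase gene Hmox1 (-0.75 ± 0.31), with 66.3, 59.3, 84.5 and 64.0 CPM in antibody animals, against 50.6, 105, 172 and 133 CPM in IgG animals. In both, 1 IgG animal lay below all antibody animals and the others were high, and neither passed after adjustment. The stromelysin gene Mmp3 had -0.70 ± 0.42 and the chemokine gene Ccl2 -0.63 ± 0.36. Without IgG animal 3 Hmox1 was -0.49, Mmp3 -0.45 and Ccl2 -0.34; Ccl2 was -1.02 without antibody animal 4 and Mmp3 -1.11 in limma-voom. Of 11 tested mRNAs known to be bound by the Zfp36 protein, 10 were below 0 (median -0.59, 1 at an unadjusted p under 0.05). That 1 was Il1b itself (-1.05 ± 0.26), with an adjusted p of 0.9997 in edgeR (0.142 at the lowest of the alternatives). Its groups did not overlap, the antibody animals being lower, as for 1.25% of all genes. Ccl3 had -0.59 ± 0.29 and Cxcl2 -0.81 ± 0.43. Without IgG animal 3 Cxcl2 was -0.29. The list shares Ccl2 and Il6 with the AP-1 targets, and Csf2 was too low to test. Of 10 heat shock genes, which respond to stress and handling, 3 were below 0 (median 0.08, 0 at an unadjusted p under 0.05). Their summed level was 1649, 1659, 2427 and 2175 CPM in antibody animals 1 to 4, against 2121, 1392, 2146 and 2014 CPM in IgG animals 1 to 4. Hspd1 had 0.25 ± 0.18 (0.10 without antibody animal 3), Hspe1 0.15 ± 0.21 (0.04 to 0.30 with 1 animal left out), Hsph1 0.12 ± 0.18 and Hspb1 0.14 ± 0.22. The sign turned for Hsph1 in limma-voom and without antibody animal 3, and for Hspb1 without antibody animal 4.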

How the data were processed

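Raw counts per gene symbol were deposited for 8 libraries of total RNA, made with featureCounts 1.4.6-p4 over exons of the UCSC mm9 annotation, per the file headers, with no strand option; reads placed at several sites or over several genes are outside the counts. The submitters' processing notes also name CASAVA, STAR 3.0, Subread and DESeq2. The exon length in the deposited table was used for TPM only, and a deposited table of alignment counts by status for the assigned shares. Coordinates are those of the deposited table (mm9); promoter sequences are from RefSeq tables of GRCm38.p6.

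Genes were kept by filterByExpr (minimum count 10, minimum total 15), which left 15980, scaled by TMM and tested with edgeR 4.0.16 (R 4.3.3, quasi-likelihood, robust, no covariate), antibody over IgG, with Benjamini-Hochberg adjustment over all genes kept. Standard errors derive from the fold change and F statistic. Log2 CPM values used for correlations have a prior count of 2. Exact permutation tests run over 70 assignments, or 40320 pairings (576 within groups). Alternatives were RLE and total-count scaling, no filter, DESeq2 1.42.0, limma-voom 3.58.1 with sample quality weights, a replicate block and leaving out each animal. The script was tested on simulated data. All pairs of libraries differed beyond counting noise (lowest chi-square per degree of freedom 27.9). Named pathway genes are up to 4 per list with the smallest p, and the 5 genes most correlated with Fos and with Jund. Members and lists were chosen with earlier results of these data known.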

Additional observations from a re-analysis of the deposited data

Results flagged for a closer look

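In groups of 4, a sample was picked out when its gap to the nearest other value as a share of the group's range exceeded Dixon's 95% critical value; 106 groups were examined, 10 had such a sample, and chance gives about 1 in 20. IgG animal 2 stood apart in Jun (114 CPM, others 91.7 to 93.2 CPM) and in Jund (124 CPM, others 73.5 to 79.4 CPM). The same library stood apart in assigned counts (21902802, others 28747515 to 29453014) and in the share of alignments assigned (24.4%, others 33.2% to 34.9%). IgG animal 2 also had 48.0% of alignments at several sites, against 37.3% to 39.5% in the other IgG libraries. The ribosomal RNA gene Rn45s took 7.12% of its assigned counts, against 1.76% to 3.77% in the others. Without this library the log2 fold change was 0.0087 for Jun and 0.14 for Jund. The part of these library differences in the Jun and Jund values was not tested. Antibody animal 4 stood apart in Zfp36 (31.2 CPM, others 24.04 to 25.2 CPM), in Klf4 (60.7 CPM, others 45.5 to 46.2 CPM), in the summed macrophage markers (7108 CPM, others 4743 to 5045 CPM) and in the summed cardiac muscle markers (79.6 CPM, others 113 to 115 CPM). Brown adipocyte markers were highest in antibody animal 3 (4445 CPM, others 1243 to 1732 CPM), and thymocyte markers in IgG animal 1 (128 CPM, others 59.8 to 70.9 CPM).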

How the results depend on the processing

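Under all 14 alternatives 0 of the 10 members and 0 pathway genes passed 0.05 after adjustment; a member reached 0.198 at the lowest. The number of genes past 0.05 was 0 with edgeR, 9 with DESeq2 and 2 with limma-voom, and 0 to 1 with 1 animal left out. The number of members below 0 was 10 in the fit reported and 8 to 10 with 1 animal left out. Fos, Junb, Egr1, Dusp1, Zfp36 and Nr4a1 were below 0 in every alternative run. The sign turned for Fosb without antibody animals 1 (0.020) or 4 (0.042) or IgG animal 1 (0.075), for Jun without IgG animal 2 (0.0087), for Jund in limma-voom (0.069) and without IgG animal 2 (0.14), for Atf3 with the replicate block (0.048) and without IgG animals 3 (0.19) or 4 (0.0077), for Hsph1 in limma-voom (-0.0075) and without antibody animal 3 (-0.026), and for Hspb1 without antibody animal 4 (-0.079); the cause was not tested. With 1 animal left out the log2 fold change ranged from -0.32 to 0.075 for Fosb, -0.15 to 0.0087 for Jun, -0.14 to 0.14 for Jund, -0.24 to 0.19 for Atf3, -0.026 to 0.23 for Hsph1 and -0.079 to 0.27 for Hspb1; for Fos it ranged from -0.52 to -0.20, for Egr1 from -0.31 to -0.04, for Dusp1 from -0.28 to -0.12 and for Nr4a1 from -0.54 to -0.11. In limma-voom Fos had -0.47 and Egr1 -0.27. The number of members at an unadjusted p under 0.05 was 1 in the fit reported, 4 in limma-voom (Fos, Junb, Zfp36 and Nr4a1), 0 with total-count scaling and 0 to 2 with 1 animal left out. Over all genes the share was 3.19% in the fit reported, 17.3% in limma-voom, 3.36% with total-count scaling and 1.93% to 9.5% with 1 animal left out, the highest being without IgG animal 1. The labels do not say that replicate numbers pair animals, and same-numbered animals did not deviate together (correlations of 0.29, -0.34, -0.13 and -0.0012); with the replicate block 0 members and 0 genes passed, 9 members were below 0 and 0 had an unadjusted p under 0.05. Pairs of members past 0.05 in correlation numbered 0 with group means removed, with total-count scaling and with any 1 animal left out. With 4 animals per group, the intervals of the fit reported leave room for undetected changes of less than 2-fold in all 10 members, most so for Nr4a1. That 2-fold bound was taken from this fit only and was not computed for the alternatives. Nr4a1 had -0.79 ± 0.28 (SE) in limma-voom and -0.54 ± 0.25 (SE) without IgG animal 3, so a 2-fold lower level is not excluded there.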
